A study of Mus musculus with 45 samples.

Results

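The alpha and beta globin genes were taken as every gene in the deposited table of gene scores whose name began with Hba- or Hbb-, which gave 8 of 24333 genes. A gene score adds up the chromatin accessibility around a gene in a single nucleus, so it measures open chromatin and not RNA. Of the 8 genes, 3 share a locus on chromosome 11 (the alpha genes Hba-x, Hba-a1 and Hba-a2, within 20.7 kb) and 5 share a locus on chromosome 7 (the beta genes Hbb-b2, Hbb-bs, Hbb-bh2, Hbb-bh1 and Hbb-y, within 40.7 kb). The scores came from nuclei of sorted Ter119+ erythroblasts, red cell precursors that carry the surface protein Ter119, of mice with intact Stag2 (WT) or deleted Stag2 (KO). STAG2, the product of Stag2, is part of the cohesin ring, which forms and holds chromatin loops. All animals of both genotypes were sampled 6 to 8 weeks after pIpC, the inducer of the deletion. The series held 45 samples, and the 6 analysed here were the accessibility (ATAC) libraries of the Ter119+ multiome experiment, 3 WT and 3 KO. The labels gave neither the allele, the Cre driver, the ages nor whether animals were pooled, and the p-values measure the spread between these 6 libraries.

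Haemoglobin is a tetramer of alpha-like and beta-like globin chains, and each locus holds embryonic genes beside the adult ones. In the alpha locus Hba-x encodes the embryonic zeta chain, and Hba-a1 and Hba-a2 encode the adult alpha chain. In the beta locus Hbb-y and Hbb-bh1 are the embryonic genes, Hbb-bh2 is a further beta-like gene of the silent stretch between them and the adult genes, and Hbb-bs and Hbb-b2 are the adult genes. The beta genes are driven by a locus control region on the far side of Hbb-y, and the alpha genes by enhancers that lie in introns of the neighbouring gene Nprl3, in both cases through chromatin loops to the promoters.

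In mm10 (GRCm38), counted from 1, the alpha genes lay on the plus strand with Hba-x at chr11:32276600-32278116, Hba-a1 at chr11:32283672-32284486 and Hba-a2 at chr11:32296492-32297310. The beta genes lay on the minus strand with Hbb-b2 at chr7:103812524-103813923, Hbb-bs at chr7:103826523-103827928, Hbb-bh2 at chr7:103839124-103840521, Hbb-bh1 at chr7:103841638-103843162 and Hbb-y at chr7:103851754-103853207. RefSeq gives the coordinates of Hbb-b2 to the gene it calls Hbb-bt. The theta-like genes Hbq1b and Hbq1a sit among the alpha genes, 2.48 kb after Hba-a1 and 2.76 kb after Hba-a2, and are not named Hba-. The adult pair Hba-a1 and Hba-a2 gave different calls in the results below. Hbb-bs, Hbb-bh2 and Hbb-y had a high, a low and a high score within 1 locus. The RefSeq promoter table (GRCm38.p6) held a window for 7 of the 8 genes. For these reasons the 210 bases before the start of those 5 genes are shown. They run 5′ to 3′ along the gene's own strand, and capitals mark the motifs GATAA and CACCC and CCAAT and ATAAA and TATAA on either strand, where ATAAA and TATAA can overlap each other and GATAA.
Hba-a1 (chr11:32283462-32283671, plus strand): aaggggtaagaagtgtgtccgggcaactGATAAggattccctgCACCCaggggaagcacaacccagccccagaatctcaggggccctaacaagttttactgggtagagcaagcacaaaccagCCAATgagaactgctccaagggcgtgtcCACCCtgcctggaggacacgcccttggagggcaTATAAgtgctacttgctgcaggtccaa
Hba-a2 (chr11:32296282-32296491, plus strand): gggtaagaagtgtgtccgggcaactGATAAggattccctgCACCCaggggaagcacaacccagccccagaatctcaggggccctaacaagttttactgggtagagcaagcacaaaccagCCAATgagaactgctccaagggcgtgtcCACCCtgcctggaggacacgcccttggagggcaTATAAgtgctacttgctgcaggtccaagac
Hbb-bs (chr7:103827929-103828138, minus strand): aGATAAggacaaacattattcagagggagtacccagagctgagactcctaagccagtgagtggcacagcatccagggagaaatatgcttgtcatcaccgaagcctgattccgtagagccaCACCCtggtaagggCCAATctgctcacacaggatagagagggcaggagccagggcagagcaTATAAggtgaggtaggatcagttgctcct
Hbb-bh2 (chr7:103840522-103840731, minus strand): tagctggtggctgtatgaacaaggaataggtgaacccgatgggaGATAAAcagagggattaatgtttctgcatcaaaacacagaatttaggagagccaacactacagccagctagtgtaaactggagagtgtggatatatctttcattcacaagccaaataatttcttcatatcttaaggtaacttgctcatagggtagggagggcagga
Hbb-y (chr7:103853208-103853417, minus strand): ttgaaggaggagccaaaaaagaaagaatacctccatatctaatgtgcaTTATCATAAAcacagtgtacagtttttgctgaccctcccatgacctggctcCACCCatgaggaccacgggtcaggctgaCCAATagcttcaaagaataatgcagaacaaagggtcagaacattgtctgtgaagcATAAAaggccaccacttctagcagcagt
The promoters of Hba-a1 and Hba-a2 had no difference over the 297 bases that their 300-base windows share, so ATAC fragments from within that stretch cannot be placed at 1 of the 2 copies by sequence. How the authors treated fragments that map to both was not given in the sources used here. The promoters of Hbb-b2 and Hbb-bs were 78.2% identical over 289 aligned bases. RefSeq extends the gene Hbb-bh2 to 103840734, beyond the deposited start at 103840521 on which its window is anchored, so the bases shown lie within the RefSeq gene and Hbb-bh2 was left out of the motif counts. The other 6 windows are not 6 separate promoters, because those of Hba-a1 and Hba-a2 have the same sequence and were both counted. GATAA, the core of the site of GATA factors, occurred in 6 of these 6 windows. It occurred in 25.4% of all 32851 windows of 300 bases in the table. CACCC, the core of the site of KLF factors, occurred in 6 of 6 against 57.5%, CCAAT in 5 of 6 against 37.4%, TATAA in 5 of 6 against 24.9%, ATAAA in 3 of 6 against 40.0%, CANNTG in 5 of 6 against 72.3% and TGANTCA in 1 of 6 against 7.81%.

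The 6 libraries held 4617 to 6990 nuclei each and 46782673 to 66286151 fragments. Median fragments per nucleus in the authors' class Int were 10121 to 12877 in WT and 13911 to 14998 in KO, and in the class Late 5693 to 6812 in WT and 6043 to 6504 in KO. The mean score per gene of 16 erythroid markers other than globins lay between 186 and 197 in WT and between 165 and 173 in KO, and 15 of the 16 were called lower in KO over all nuclei. In Int and Late nuclei 9 and 15 of the 16 were called lower. Of all genes tested 14.2% were called lower over all nuclei, 7.1% in Int and 18.5% in Late, and 29.1%, 12.7% and 32.9% were called higher. The same means of 8 granulocyte and monocyte markers overlapped between genotypes over all nuclei (23.8 to 28.4 in WT, 27.7 to 30.8 in KO), where 4 of the 7 tested were called higher, and in Late nuclei, where 2 of 6 were. In Int nuclei they did not overlap (19.2 to 21.8 in WT, 24.2 to 26.3 in KO), and 4 of 8 were called higher. In each of the 3 fits 1 of those called higher had a WT mean below the minimum mean score of 5 for testing. Over all nuclei the means of lymphoid (10.95 to 12.2 against 12.9 to 13.9, 7 genes), megakaryocyte (34.9 to 40.8 against 42.4 to 44.6, 5 genes), macrophage (4.01 to 4.87 against 5.25 to 5.47, 5 genes) and stem or progenitor markers (10.0 to 11.8 against 12.6 to 14.5, 5 genes) lay higher in every KO library. In Int nuclei the macrophage (5.45 to 6.96 against 6.31 to 6.85) and stem or progenitor means (13.1 to 15.7 against 15.5 to 16.7) overlapped, as did the megakaryocyte means in Late nuclei (32.4 to 39.6 against 38.6 to 42.2), and the other means lay higher in every KO library in both classes. Of these lists, 2 of 4 lymphoid, 1 of 4 megakaryocyte and 3 of 5 stem or progenitor genes tested were called higher over all nuclei, 0, 1 and 0 in Int, and 2, 1 and 5 in Late. In each of the 3 fits 1 megakaryocyte gene was called lower, and of the macrophage genes 0 of 2 tested were called over all nuclei, 0 of 5 in Int, and none was tested in Late. None of these markers was at 0 in its mean over libraries, and the lowest such mean was 3.16 over all nuclei, 3.58 in Int and 1.86 in Late. The share that these cells have in the results was not tested. Stag2 itself scored 64.2, 65.7 and 65.9 in WT and 61.0, 65.1 and 62.4 in KO (limma log2 difference -0.05 ± 0.05 SE, adjusted p = 0.348), and a score over the whole gene does not check a deletion of some of its exons. Of 33320 distinct cell barcodes, 725 (2.18%) occurred in more than 1 library.

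In WT nuclei the 8 genes fell into a high and a low set, and the low set was made up of Hba-x, Hbb-bh2 and Hbb-bh1. Scores are given with each library rescaled to a sum of 1000000 over genes. Divided by gene length, the WT means over all nuclei were 289 ± 18 per kb for Hba-a1, 287 ± 34 for Hba-a2, 270 ± 17 for Hbb-bs, 256 ± 20 for Hbb-y and 223 ± 12 for Hbb-b2 (SD, n = 3). These 5 genes were among the highest 2.27% of genes on the per-length scale. The WT means per kb of the other 3 were 10.1 ± 2.1 for Hbb-bh2, 8.94 ± 1.05 for Hba-x and 7.40 ± 1.13 for Hbb-bh1 (SD, n = 3), so the lowest high-set gene lay above the highest low-set gene in every library. Within the high set the library ranges of each gene and the next in this order overlapped. Within the low set those of Hbb-bh2 and Hba-x overlapped, and every library of Hba-x lay above every library of Hbb-bh1. The order depends on the division by length. Undivided WT means were 379 for Hbb-bs, 372 for Hbb-y, 313 for Hbb-b2, 236 for Hba-a1 and 235 for Hba-a2. There every library of Hbb-b2 lay above every library of Hba-a1. Undivided, over the 6 libraries, Hba-x, Hbb-bh2 and Hbb-bh1 ranked 12152, 12859 and 14012 of 24333 genes. The high score of Hbb-y, an embryonic gene, stood beside the low score of Hbb-bh1, the other embryonic gene, 8.59 kb away on the side of the adult genes. On the other side of Hbb-y, 28.1 kb away, the olfactory receptor gene Olfr66 had a mean score of 212 over the 6 libraries, not divided by length. How a fragment's distance to a gene was weighted was not given in the sources used here, and the same fragments can enter the scores of adjacent genes.

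All 8 genes scored higher in Late than in Int nuclei of the WT libraries. How the authors assigned the classes was not given in the sources used here, so the difference between classes is described and not tested. The adult alpha genes had the steepest step in WT, with 1.91-fold for Hba-a2 and 1.62-fold for Hba-a1 on the log2(score + 1) scale, and each was higher in Late in 6 of 6 libraries. The step was 1.47-fold for Hba-x, 1.37-fold for Hbb-bs, 1.25-fold for Hbb-b2, 1.24-fold for both Hbb-bh2 and Hbb-bh1 and 1.16-fold for Hbb-y. In the KO libraries Hbb-bh1 was the exception to the rise, with 1 of 3 higher in Late. Early nuclei were few, with 102, 235 and 20 in WT and 310, 25 and 16 in KO. In the libraries with at least 20 Early nuclei, Hba-a1 scored 64.5 ± 4.2 in WT (SD, n = 3) and 56.6 and 62.8 in KO. Hbb-bs scored 108 ± 15 in WT (SD, n = 3) and 80.6 and 71.4 in KO, and Hbb-y 172 ± 31 in WT (SD, n = 3) and 135 and 139 in KO. Hba-x, Hbb-bh2 and Hbb-bh1 were at 10.4 ± 1.8, 13.4 ± 4.3 and 10.6 ± 4.9 in the same WT libraries (SD, n = 3), and the ranges of these 3 genes overlapped between Early and Int nuclei.

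The main question of the design was whether loss of Stag2 changed these scores. Over all nuclei 6 of the 8 genes fell in KO and none rose, where 14.2% of all 17682 genes tested were called lower (43.3% called in either direction; limma with Benjamini-Hochberg adjustment, threshold 0.05). Of the 4421 tested genes with the highest scores 31.4% were called lower. In Int nuclei 5 of the 8 fell, against 7.1% of all genes called lower (19.8% called, and 17.8% called lower among the highest-scoring 4867). In Late nuclei 6 of the 8 fell, against 18.5% (51.4% called, and 32.8% called lower among the highest-scoring 3972). In each fit Hba-x, Hbb-bh2 and Hbb-bh1 were not among the highest-scoring genes, and the high set was. Of the high set all but Hba-a2 fell over all nuclei and in Late nuclei. In Int nuclei Hba-a1, Hbb-b2 and Hbb-bs did. WT and KO scores were apart, with no overlap, in 5 of the 8 genes over all nuclei, 5 in Int and 6 in Late, against 55.4%, 37.3% and 59.5% of all genes. The median log2 difference of the 8 genes was -0.25 over all nuclei, -0.23 in Int and -0.23 in Late, against 0.10, 0.06 and 0.05 over all genes tested. Centring each library on its median gene moved the median over all genes tested to -0.05 over all nuclei, -0.12 in Int and -0.01 in Late, and that of the 8 globin genes to -0.39, -0.41 and -0.29. Higher genes were 67.1% of calls over all nuclei, 64.2% in Int and 64.0% in Late, and 35.4%, 24.4% and 47.9% after median centring. With quantile normalization they were 46.9%, 50.7% and 46.5%, and with cyclic loess 54.0%, 57.5% and 52.5%. Beside these falls, 15 of the 16 other erythroid markers were called lower over all nuclei, and their part in the result was not tested. Nearly all KO Late nuclei belonged to the authors' cluster C2 and nearly all WT Late nuclei to C3, so genotype and cluster cannot be told apart there.

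**Figure D1:**
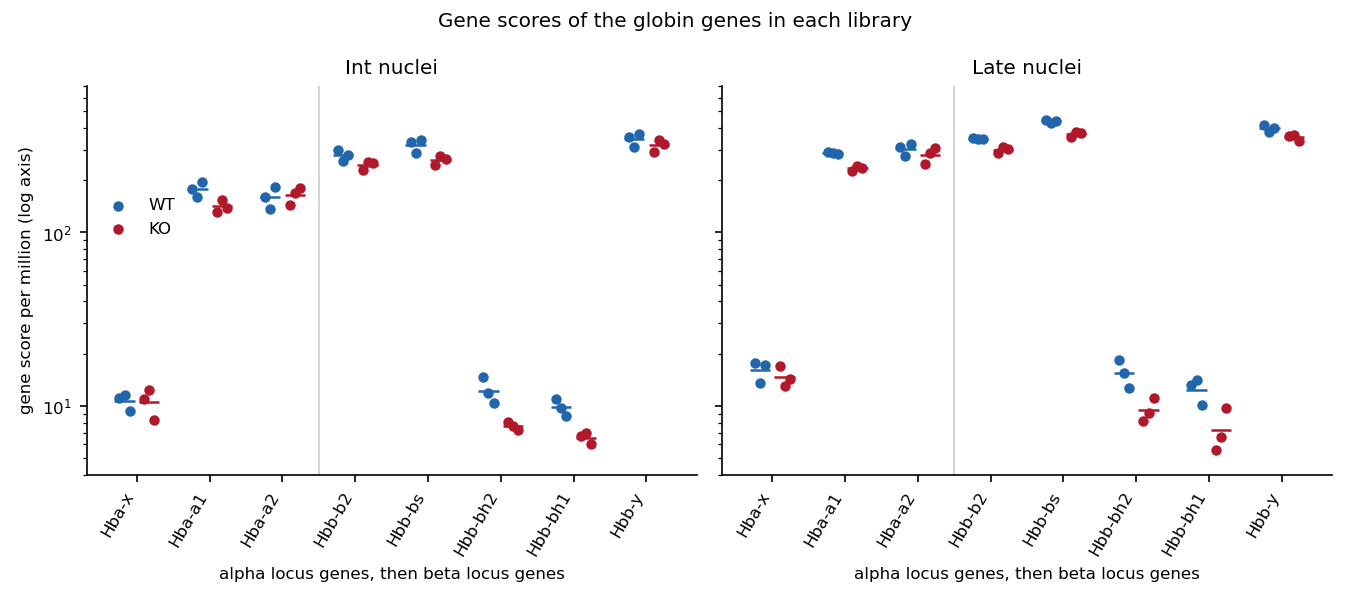
Gene score (library sum 1000000, log axis) of each of the 8 genes in Int nuclei (left) and Late nuclei (right), with 1 point per library, WT in blue, KO in red and the group mean as a bar. Hba-x, Hbb-bh2 and Hbb-bh1 sit at 5.57 to 18.3 and the other 5 genes at 131 to 444, and in Late nuclei every KO point of Hba-a1, Hbb-b2, Hbb-bs and Hbb-y lies below every WT point.

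The adult beta genes fell in both classes. Hbb-bs, the higher-scoring of the 2 adult beta genes, scored 331, 288 and 340 in WT Int nuclei and 246, 276 and 266 in KO Int nuclei. Every KO library was below every WT library, and the log2 difference was -0.28 ± 0.06 (SE, adjusted p = 0.00210). In Late nuclei it scored 444, 429 and 442 in WT and 355, 380 and 377 in KO, again without overlap (-0.24 ± 0.04 SE, adjusted p = 0.000172). Hbb-b2, the adult gene farthest from the locus control region, scored 298, 259.7 and 280.3 in WT Int nuclei and 229, 254 and 252 in KO Int nuclei. The ranges were apart and the difference was -0.19 ± 0.06 (SE, adjusted p = 0.0245). In Late nuclei it scored 352, 345 and 346 in WT and 287, 309 and 302 in KO (-0.22 ± 0.04 SE, adjusted p = 0.000411), with no overlap. Nuclei of each class were also split into 5 bins by fragments per nucleus. In Int the WT mean of Hbb-bs was 356 in bin 2 and 270 in bin 5, the bin with most fragments. For both genes the KO mean was lower in 5 of 5 bins of each class. Every KO library was below every WT library in 1 of 5 Int bins and 4 of 5 Late bins for each. Over all nuclei the differences were -0.28 for Hbb-bs (adjusted p = 0.00261) and -0.21 for Hbb-b2 (adjusted p = 0.0075). When nuclei were weighted by their fragments, these calls over all nuclei were lost for Hbb-bs (-0.31, adjusted p = 0.0921) and Hbb-b2 (-0.22, adjusted p = 0.124), that of Hbb-b2 was also lost with no variance trend (adjusted p = 0.05002), and the Int call of Hbb-bs was lost with no variance trend (adjusted p = 0.0873). The Int call of Hbb-b2 was lost in 6 of 18 alternatives, which were quantile normalization (-0.12), cyclic loess (-0.11), no variance trend, and leaving out the first WT library (-0.14), the third WT library (-0.18) or the first KO library (-0.14).

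The adult alpha genes, which encode the same chain and have the same promoter sequence over the window given above, gave different calls. Hba-a1 scored 177, 160.1 and 197 in WT Int nuclei and 131, 155 and 139 in KO Int nuclei. The groups did not overlap, and Hba-a1 fell by 20.4% (log2 difference -0.33 ± 0.06 SE, adjusted p = 0.000338). In Late nuclei Hba-a1 scored 293, 287 and 283 in WT and 227, 242 and 236 in KO, a fall of 18.2% (-0.29 ± 0.04 SE, adjusted p = 3.9e-05), also without overlap. The Int call was lost with no variance trend (adjusted p = 0.0836). Over all nuclei it was 252, 222 and 233 in WT and 169, 203 and 188 in KO (-0.34 ± 0.06 SE, adjusted p = 0.00030). Hba-a2, 12005 bp beyond Hba-a1, scored 160, 136 and 182 in WT Int nuclei and 144, 169 and 182 in KO Int nuclei. The groups overlapped, with a difference of 0.05 ± 0.08 (SE, adjusted p = 0.671) that turned to -0.12 after median centring, to -0.06 without WT replicate 2 and to -0.02 without KO replicate 3. In Late nuclei Hba-a2 scored 312, 276 and 324 in WT and 249, 289 and 307 in KO (-0.11 ± 0.07 SE, adjusted p = 0.183), and over all nuclei 259, 205 and 242 in WT and 185, 234 and 245 in KO (-0.09 ± 0.09 SE, adjusted p = 0.386). The ranges overlapped in both, over all nuclei the difference turned to 0.03 without KO replicate 1, and in Late nuclei it was called without KO replicate 3 (-0.18, adjusted p = 0.0491) and was -0.03 without KO replicate 1 (adjusted p = 0.734). The theta-like genes that follow them had differences in the same order. They lie 2.48 kb after Hba-a1 and 2.76 kb after Hba-a2 and can share fragments with these genes, so they are not separate evidence. Hbq1b, after Hba-a1, had differences of -0.22 in Int (adjusted p = 0.0180) and -0.19 in Late nuclei (adjusted p = 0.00281), and Hbq1a, after Hba-a2, had 0.23 in Int (adjusted p = 0.00824, and 0.06 with adjusted p = 0.763 after median centring) and 0.05 in Late nuclei (adjusted p = 0.488, and -0.01 after median centring). In Int nuclei the groups overlapped for both, with Hbq1b at 284 to 322 in WT and 242 to 291 in KO. Hbq1a was at 144 to 180 in WT and 177 to 200 in KO. In Late nuclei the groups were apart for Hbq1b and overlapped for Hbq1a. The Int calls were lost without WT replicate 1, 3 or KO replicate 1 for Hbq1b (-0.20, -0.18 and -0.15) and without WT replicate 2 for Hbq1a (0.15), both with no variance trend, and that of Hbq1b with cyclic loess (-0.13). The RefSeq promoters of Hbq1b and Hbq1a were 95.3% identical over 300 aligned bases.

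**Figure D2:**
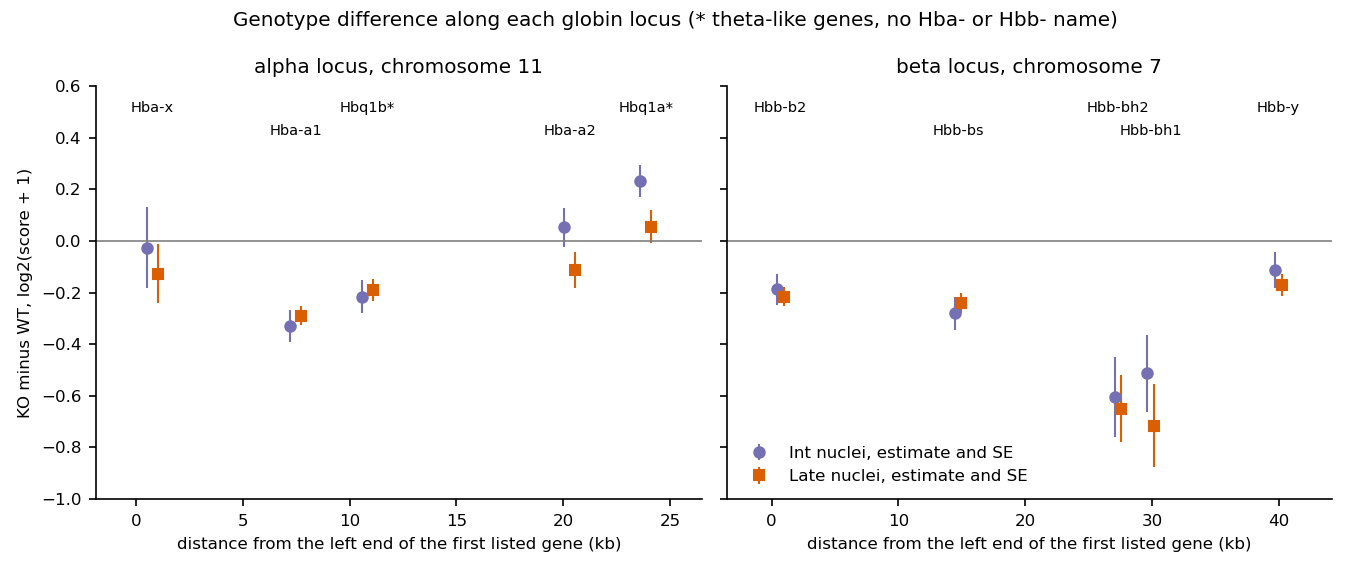
Log2 difference between KO and WT (estimate and SE of the limma fit, log2(score + 1) scale) of each gene against its distance in kb from the left end of the first listed gene of the alpha locus (left) and the beta locus (right), for Int nuclei (circles) and Late nuclei (squares); an asterisk marks the theta-like genes. In the alpha locus Hba-a1 and Hbq1b lie below 0 in both classes, while Hba-a2 and Hbq1a are at 0.05 and 0.23 in Int nuclei (-0.12 and 0.06 after median centring); in the beta locus all 5 genes lie below 0, with Hbb-bh2 and Hbb-bh1 the lowest.

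Among the embryonic and silent genes, Hbb-bh2 and Hbb-bh1 had the largest falls of the 8 genes on the log2 scale, at low scores. Hbb-bh2 scored 14.6, 11.8 and 10.3 in WT Int nuclei and 8.08, 7.59 and 7.22 in KO Int nuclei. The groups did not overlap and the difference was -0.60 ± 0.15 (SE, adjusted p = 0.00529). In Late nuclei Hbb-bh2 scored 18.3, 15.4 and 12.7 in WT and 8.16, 9.11 and 11.04 in KO (-0.65 ± 0.13 SE, adjusted p = 0.00106), without overlap. Hbb-bh1, the embryonic gene next to it, scored 10.9, 9.74 and 8.78 in WT Int nuclei and 6.72, 6.93 and 6.00 in KO Int nuclei (-0.51 ± 0.15 SE, adjusted p = 0.0155). In Late nuclei Hbb-bh1 scored 13.2, 13.99 and 10.04 in WT and 5.57, 6.58 and 9.66 in KO (-0.72 ± 0.16 SE, adjusted p = 0.00235). Both classes were without overlap. These 2 genes are 1.12 kb apart and can share fragments, so they are not separate evidence, and their correlation over the 12 library-by-class values was 0.952. Without WT replicate 1 the Int calls of Hbb-bh2 (-0.48, adjusted p = 0.0525) and Hbb-bh1 (-0.44, adjusted p = 0.0721) were lost, and that of Hbb-bh1 also without KO replicate 1 (-0.53) or KO replicate 3 (-0.46).

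Hbb-y, the embryonic gene next to the locus control region, was called lower in Late and not in Int nuclei. It scored 354, 310 and 371 in WT Int nuclei and 292, 340 and 324 in KO Int nuclei, with overlap (-0.11 ± 0.07 SE, adjusted p = 0.260, and from -0.19 with adjusted p = 0.0476 without WT replicate 2 to -0.05 with adjusted p = 0.746 without KO replicate 1). In Late nuclei it scored 418, 379 and 401 in WT and 358, 367 and 338 in KO, and here every KO library was below every WT library (-0.17 ± 0.04 SE, adjusted p = 0.00549). The limma fit of its Late less Int difference did not call Hbb-y (-0.06 ± 0.06 SE, adjusted p = 0.663). Over all nuclei the ranges overlapped (340 to 394 in WT, 312 to 354 in KO), the difference was -0.16 ± 0.06 (SE, adjusted p = 0.0466), and 9 of 19 alternative settings ended the call, among them leaving out WT replicate 1 (-0.12), WT replicate 3 (-0.14), KO replicate 1 (-0.12) or KO replicate 3 (-0.16). Hba-x, the zeta gene, scored 11.04, 11.5 and 9.35 in WT Int nuclei and 10.9, 12.3 and 8.33 in KO Int nuclei. The groups overlapped in Int (-0.03 ± 0.16 SE, adjusted p = 0.920) and in Late nuclei (17.7, 13.6 and 17.2 in WT, 16.9, 12.9 and 14.3 in KO, -0.13 ± 0.11 SE, adjusted p = 0.367). The Int difference of Hba-x turned to 0.00046 without WT replicate 1, to 0.03 without WT replicate 2 and to 0.12 without KO replicate 3, and its Late difference ran from -0.24 to -0.04 over the libraries left out in turn and was called with quantile normalization (-0.39, adjusted p = 0.0144) and cyclic loess (-0.34, adjusted p = 0.0314).

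Whether genes of 1 locus changed by unequal amounts was asked with the log2 ratio of each pair within a library, for 13 pairs. With 1 added to each score, such a ratio hardly depends on the rescaling of a library at high scores. With 3 libraries against 3 an exact permutation test over libraries, two-sided, cannot give a p below 0.1. The exact p-values below are unadjusted. With Benjamini-Hochberg adjustment over the 13 pairs the smallest was 0.1625 over all nuclei, 0.26 in Int and 0.325 in Late nuclei. No pair passed the threshold of 0.05. The ratio of Hba-a1 to Hba-a2 in Int nuclei was 0.15, 0.23 and 0.11 in WT and -0.14, -0.12 and -0.39 in KO. The groups were apart, by -0.38 (exact p = 0.1), with 3 of 3 WT ratios above 0 and 3 of 3 KO ratios below 0. In Late nuclei the ratio was -0.09, 0.06 and -0.20 in WT and -0.13, -0.25 and -0.38 in KO, and the groups overlapped (difference -0.18, exact p = 0.2). The ratio of Hbb-bs to Hbb-y in Int nuclei was -0.10, -0.11 and -0.12 in WT and -0.25, -0.30 and -0.28 in KO, apart by -0.17 (exact p = 0.1), and in Late nuclei the groups overlapped (difference -0.07, exact p = 0.3). Between the adult beta genes the ratio of Hbb-b2 to Hbb-bs differed by 0.09 in Int (exact p = 0.1) and by 0.03 in Late nuclei (exact p = 0.2). The ratio of Hbb-b2 to Hbb-y overlapped in both classes, with differences of -0.07 in Int (exact p = 0.3) and -0.05 in Late nuclei (exact p = 0.4). So did those of Hbb-bh2 to Hbb-y (-0.49 and -0.48) and Hbb-bh1 to Hbb-y (-0.40 and -0.54), each with exact p = 0.2 in both classes. The ratios of Hbb-b2 to Hbb-bh2 and to Hbb-bh1 were apart in Int nuclei, by 0.42 and 0.33 (exact p = 0.1 for each). In Late nuclei they overlapped, with differences of 0.43 and 0.50 (exact p = 0.2 for each). Those of Hbb-bs to Hbb-bh2 and to Hbb-bh1 overlapped in both classes. Their differences were 0.33 and 0.23 in Int and 0.41 and 0.47 in Late nuclei (exact p = 0.2 for each). The ratio of Hbb-bh2 to Hbb-bh1 overlapped in both classes, with differences of -0.09 (exact p = 0.4) and 0.07 (exact p = 0.6). Over all nuclei 8 of the 13 pairs had groups that did not overlap, against 39.4% of all pairs of tested genes within 50 kb of each other, in Int 5 of 13 against 31% and in Late 0 of 13 against 41.1%.

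**Figure D3:**
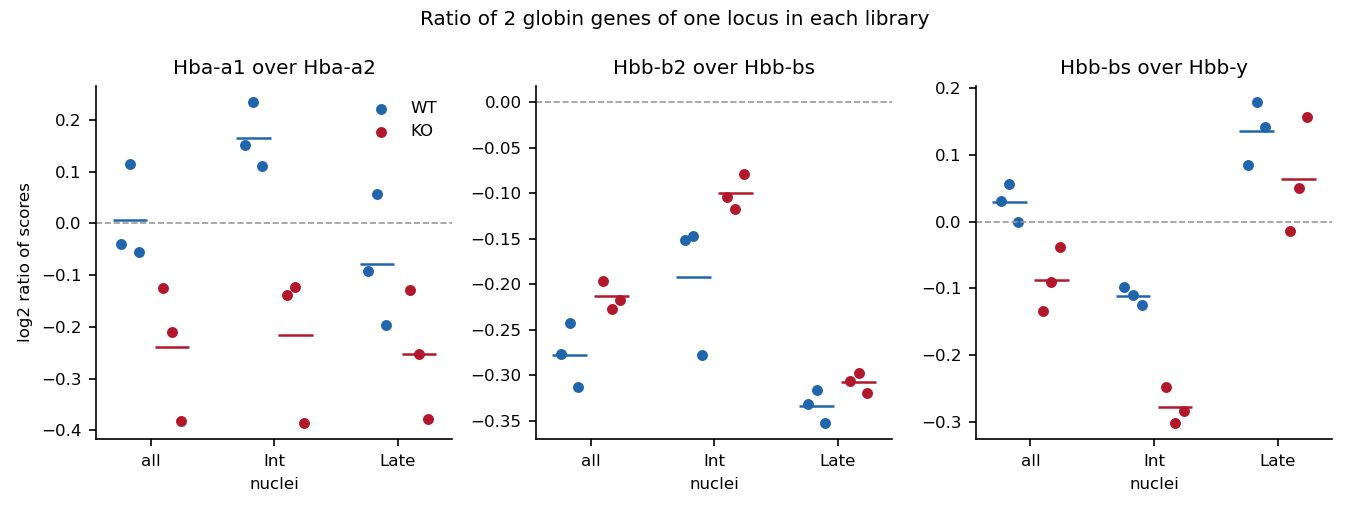
Log2 ratio of the scores of 2 genes of 1 locus in each library, over all, Int and Late nuclei, with WT in blue, KO in red and the group mean as a bar; each panel has its own axis. In Int nuclei the 3 WT values of Hba-a1 over Hba-a2 (left) lie between 0.11 and 0.23 and the 3 KO values between -0.39 and -0.12, and for Hbb-b2 over Hbb-bs (middle) and Hbb-bs over Hbb-y (right) the groups are apart in Int and overlap in Late nuclei.

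The high and low sets also differed in the share of nuclei with a score above 0. In WT Late nuclei it was 82.8% ± 2.8 for Hbb-y, 72.9% ± 3.6 for Hbb-b2, 70.3% ± 2.9 for Hbb-bs, 56.3% ± 2.5 for Hba-a2 and 56.3% ± 3.9 for Hba-a1 (SD, n = 3). For Hba-x, Hbb-bh2 and Hbb-bh1 it was 5.76% ± 0.84, 5.68% ± 1.36 and 4.58% ± 0.74 (SD, n = 3). In KO Late nuclei the share was 48.2% ± 2.1 for Hba-a1 and 65.2% ± 2.8 for Hbb-b2, and 5 of the 8 genes had KO shares all below the WT shares, against 40.6% of all genes with groups apart in either direction (exact p = 0.1 for each of the 5). Over all nuclei 2 of the 8 were apart, against 32.7%, and in Int nuclei 2 of the 8, against 67.9%. KO nuclei of the class Int held more fragments than WT nuclei. There the share of Hba-a1 was 56.9% ± 0.7 for WT and 55.0% ± 1.8 for KO libraries (SD, n = 3). The shares of Hba-a2 (52.5% ± 2.6 against 58.5% ± 3.6) and Hbb-y (86.5% ± 1.1 against 88.8% ± 0.4) were higher in every KO library than in every WT library. With nuclei reweighted so that 5 bins of fragments per nucleus weighed the same in every library, the share of Hba-a1 in Int nuclei was 58.6% ± 3.0 for WT and 52.3% ± 2.7 for KO libraries (SD, n = 3) and the groups were apart, while those of Hba-a2 (54.4% against 55.7%) and Hbb-y (87.4% against 86.9%) overlapped.

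The genotype difference itself was then compared between Late and Int nuclei, with the Late minus Int difference of each library as the measured value. None of the 8 genes passed the threshold, at which 5.66% of 15873 genes were called, and 1 of the 8 had an unadjusted p under 0.05. That gene was Hba-a2. Its step from Int to Late was 0.96, 1.02 and 0.83 in WT and 0.78, 0.77 and 0.75 in KO, so every KO step was smaller than every WT step (-0.17 ± 0.05 SE, adjusted p = 0.0532), as the groups were apart for 23.4% of all genes. Its adjusted p was 0.0155 with equal fragment bins, 0.00284 without WT replicate 3, 0.01496 with the replicate number as a block, and between 0.00284 and 0.227 over 11 alternatives. Of the other 7 genes the differences ran from -0.20 for Hbb-bh1 (adjusted p = 0.620) to 0.04 for Hba-a1 (adjusted p = 0.792), and that of Hbb-bh1 was -0.03 without KO replicate 1 and -0.45 without KO replicate 3. Hbq1a, the gene after Hba-a2, was called with -0.18 ± 0.04 (SE, adjusted p = 0.0235), with a WT step of 1.02 ± 0.03 and a KO step of 0.84 ± 0.03 (SD, n = 3). That call was lost without WT replicate 1 (adjusted p = 0.117), WT replicate 2 (0.0683), KO replicate 1 (0.0946) or KO replicate 2 (0.142).

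Cluster and genotype were largely the same split. Of the 11 clusters, C2, C8 and C10 were 97.4%, 99.4% and 99.9% KO nuclei, and C3, C6, C9 and C11 were 0.740%, 1.32%, 0.971% and 0.0554% KO nuclei. Only C2 and C5 held at least 50 nuclei of every library and were fitted. C1 held 20 to 27 nuclei per library. Its WT and KO means were 88.3 and 166 for Hba-a1 and 71.5 and 268 for Hba-a2. For Hbb-b2 they were 206 and 325, and for Hbb-bs 282 and 379. In C3 only 2 KO libraries held at least 20 nuclei, with 21 and 37. There the means were 290 and 285 for Hba-a1 and 306 and 197 for Hba-a2. They were 348 and 425 for Hbb-b2 and 440 and 429 for Hbb-bs. The differences in C1 and C3 were not tested. In C5, a cluster of 2305 Int nuclei among 2326, Hbb-bs scored 456, 326 and 382 in WT and 271, 316 and 286 in KO. The groups were apart, but the difference was not called (-0.40 ± 0.12 SE, adjusted p = 0.156). Nor were those of Hbb-b2 (-0.38 ± 0.11 SE, adjusted p = 0.166, groups apart) and Hba-a1 (-0.33 ± 0.12 SE, adjusted p = 0.275, groups overlapping). Hba-a2 had 0.07 ± 0.15 (SE, adjusted p = 0.875), which turned to -0.01 without WT replicate 2 and to -0.06 without KO replicate 3. In C5 limma called 0 of the 8 genes and 0.89% of all genes, with 2599 genes at an unadjusted p under 0.05, and the groups were apart for 2 of the 8 against 19.6% of all. C2 held 64, 58 and 68 WT nuclei with 1920 to 2258 median fragments, and its KO nuclei had 6092 to 6594. Genotype and fragments per nucleus can therefore not be told apart in C2. Among all Late nuclei the WT mean of Hbb-bs was 482 in the bin of 1000 to 3445 fragments and 389 in the bin with most. In the bin of 1000 to 3445 fragments the genotypes overlapped for Hbb-bs and Hba-a1. In C2 0% of 17360 genes were called by limma, 2190 had an unadjusted p under 0.05, and the groups were apart for 4 of the 8 genes against 25.8% of all. There Hba-a1 scored 289.9, 278 and 311 in WT and 227, 244 and 238 in KO (-0.31 ± 0.10 SE, adjusted p = 0.331), and Hbb-bs 493, 479 and 579 in WT and 355, 379 and 377 in KO (-0.47 ± 0.11 SE, adjusted p = 0.215). Both were without overlap, and Hbb-bs was called without WT replicate 2 (-0.53, adjusted p = 0.0472) or WT replicate 3 (-0.39, adjusted p = 0.0438). Cluster C7, which held 689 of the Early nuclei, had the lowest mean score of Hbb-bs in either genotype, with 98.1 and 91.4 in the 2 WT libraries with at least 20 nuclei and 81.3 and 72.5 in the 2 such KO libraries.

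**Figure D4:**
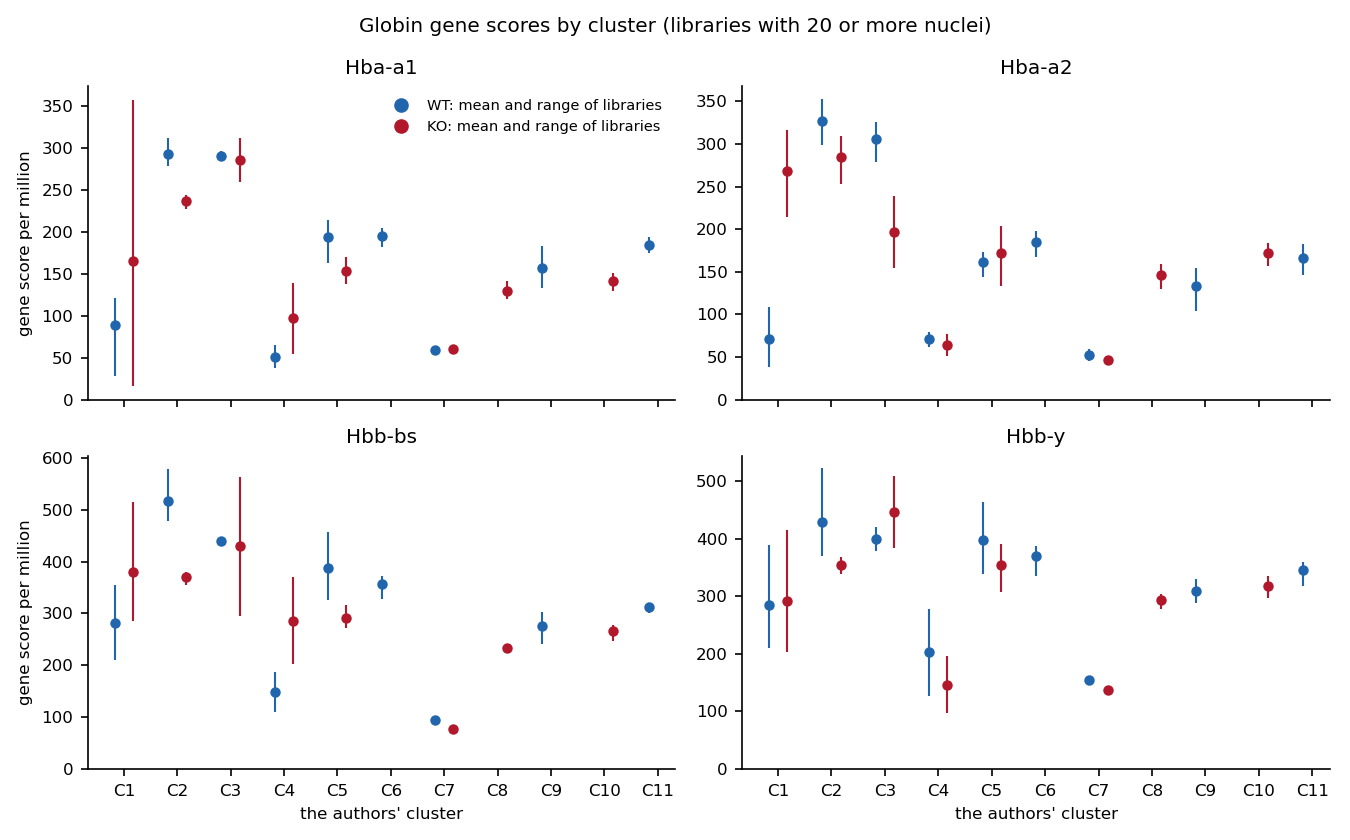
Mean gene score (library sum 1000000) of Hba-a1, Hba-a2, Hbb-bs and Hbb-y in each of the authors' 11 clusters, WT in blue and KO in red, with lines from the lowest to the highest library among those with at least 20 nuclei in the cluster. The Late clusters C2 and C3 carry the highest adult alpha scores among clusters of over 1000 nuclei, C7 carries low scores of all 4 genes, and C6, C8, C9, C10 and C11 have points of 1 genotype only.

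Genes around the 2 loci were compared in the same fits. Over all genes tested 43.3% were called over all nuclei, 29.1% higher and 14.2% lower. Within 250 kb of the alpha genes 12 of 13 other genes were tested, and over all nuclei 5 were called higher and 1 lower, the latter being Hbq1b (-0.23, adjusted p = 0.0167). That call was lost without WT replicate 1 (-0.18), without KO replicate 1 (-0.14), with cyclic loess (-0.15), with no variance trend and with nuclei weighted by fragments. Leaving out each library in turn gave 1 to 4 called higher, the lowest without WT replicate 1 or KO replicate 2. Median centring or weighting by fragments gave 2 higher, and quantile normalization or cyclic loess 3. In Int nuclei 2 of the 12 were called higher and 1 lower, against 12.7% and 7.1% of all genes. In Late nuclei 6 of the 12 were called higher and 1 lower, against 32.9% and 18.5%. Nprl3, the nearest gene before Hba-x at 8.89 kb and the host of the enhancers, scored 372, 338 and 363 in WT and 328, 359 and 349 in KO over all nuclei, with overlap (-0.05, adjusted p = 0.466, and 0.02 with cyclic loess). In Late nuclei Nprl3 scored 397, 390 and 397 in WT and 382.5, 381.5 and 368 in KO, without overlap. It was not called there (-0.07, adjusted p = 0.129), except with median centring (-0.13, adjusted p = 0.0456). In Int nuclei its groups overlapped (0.005, adjusted p = 0.967). Among the tested genes the largest rise was that of Ubtd2, a ubiquitin domain gene 158 kb beyond Hba-a2, from 15.2, 18.3 and 15.9 in WT to 24.9, 21.9 and 25.1 in KO over all nuclei (0.52, adjusted p = 0.000534). Within 250 kb of the beta genes, which lie among olfactory receptor genes, 14 of 30 other genes were tested, with 4 called lower and 3 called higher (Olfr243, Olfr69 and Olfr68), and leaving out each library in turn gave 1 to 4 lower (1 without WT replicate 1) and 2 to 5 higher. In Int nuclei 2 of 16 tested were called lower and 2 higher (Olfr69 and Olfr68). In Late nuclei 5 of 9 were called lower and 3 higher (Olfr243, Olfr69 and Olfr68). Over all nuclei the nearest on each side fell, with -0.23 for Olfr67 (20.7 kb from Hbb-b2, adjusted p = 0.00965) and -0.18 for Olfr66 (adjusted p = 0.0221). The call of Olfr67 was lost without WT replicate 1 (-0.18) and with nuclei weighted by fragments (-0.20). That of Olfr66 was lost in 7 alternatives, among them quantile normalization and cyclic loess (-0.10 in both) and leaving out KO replicate 1 (-0.13), WT replicate 1 (-0.12) or WT replicate 3 (-0.17). The largest fall among the tested genes was that of Olfr631, 61.9 kb beyond Hbb-y (43.8, 37.8 and 37.9 in WT, 26.1, 25.7 and 27.7 in KO, -0.57, adjusted p = 1.55e-05). Olfr69, 40.9 kb before Hbb-b2, scored 4.91, 5.01 and 3.87 in WT and 8.89, 6.86 and 7.19 in KO (0.63, adjusted p = 0.000740). Over all nuclei the WT means of Olfr69 (4.60) and Olfr68 (4.91) were below the minimum of 5, so both were tested only through their KO scores and their calls are no support for a rise. The same holds for both in Late nuclei (4.11 and 4.41) and for Olfr69 in Int nuclei (4.88).

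Regulators and partners of the globin genes were taken from a list of 31 genes, of which 29 were tested. Over all nuclei 16 fell and 1 was called higher, in Int nuclei 10 fell and none was called higher, and in Late nuclei 21 fell and 1 was called higher, with medians of -0.15, -0.12 and -0.18. Of all genes 14.2%, 7.1% and 18.5% were called lower (31.4%, 17.8% and 32.8% among the highest-scoring), with medians of 0.10, 0.06 and 0.05. Not all listed genes are among the highest-scoring. Hic2, for example, had means of 5.98 in WT and 8.22 in KO over all nuclei. Other scalings gave 12 to 21 lower over all nuclei, 5 to 15 in Int and 16 to 22 in Late, and 0 or 1 higher in each. Among the activators, Klf1, which binds CACCC sites of the adult beta promoter, scored 232, 223 and 212 in WT Late nuclei and 178, 189 and 199 in KO Late nuclei, without overlap (-0.23, adjusted p = 0.00114). Its Int difference was not called. Gata1, a factor of red cell genes at large, fell in both classes (-0.17 in Int, adjusted p = 0.0152, and -0.18 in Late, adjusted p = 0.0103), as did Tal1 (-0.22 and -0.24) and Lmo2 (-0.22 and -0.27), which join Gata1 and Ldb1 in the complex that ties the locus control region to the genes. Ldb1 was called in Late nuclei (-0.21, adjusted p = 0.0144). With cyclic loess the Int calls of Gata1 (-0.14) and Lmo2 (-0.17) and the Late calls of Gata1 (-0.12), Tal1 (-0.17) and Ldb1 (-0.15) were lost. With no variance trend the Int calls of Gata1, Lmo2, Sox6 and Bcl11a and the Late calls of Tal1 and Ldb1 were lost. The Late call of Ldb1 was also lost with quantile normalization (-0.16) and without KO replicate 1 (-0.15, adjusted p = 0.0740) or KO replicate 2 (-0.19, adjusted p = 0.0599), and that of Tal1 without WT replicate 2 (-0.20, adjusted p = 0.0550) or KO replicate 1 (-0.20, adjusted p = 0.0513). In Int nuclei the call of Gata1 was lost without WT replicate 1 (-0.16) or KO replicate 1 (-0.13), and those of Lmo2 (-0.15) and Sox6 (-0.14) without WT replicate 1. Of the silencers of the embryonic genes, Bcl11a scored 61.9, 55.9 and 51.0 in WT Late nuclei and 38.5, 40.0 and 43.1 in KO Late nuclei, without overlap (-0.46, adjusted p = 0.000155). Sox6 (-0.21 in Int, -0.44 in Late) fell in both classes, and its Int call was lost with quantile normalization (-0.14) and cyclic loess (-0.13). Myb, a factor of progenitor growth, fell in both (-0.38 and -0.46), while Zbtb7a, a further silencer, overlapped between genotypes in both (-0.07 with adjusted p = 0.390, and 0.02 with adjusted p = 0.691). The 1 gene called higher was Hic2, a repressor of Bcl11a. It scored 3.50, 3.79 and 4.73 in WT and 5.89, 7.48 and 5.78 in KO Late nuclei (0.56, adjusted p = 0.00312), and it was not called with quantile normalization (0.18) or cyclic loess (0.15). Its WT mean of 4.01 was below the minimum of 5, so in Late nuclei it was tested only through its KO scores and its call is no support for a rise. Over all nuclei its call was lost in 9 alternatives. The others that fell in at least 1 of the 3 fits were Ikzf1, Klf3, Mbd2, Nfia, Alas2, Chd4, Hbs1l, Lyl1, Mafk, Nfe2, Nfix, Nr2c2 and Zfpm1. Of these, the Late calls of Lyl1 and Mafk were lost in 9 and 5 alternatives and the Int calls of Nfia and Mbd2 in 5 and 3, while those of Chd4, Nfix and Nr2c2 in Late were lost with cyclic loess and those of Zfpm1 in Late and Ikzf1 in Int with no variance trend.

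The genes whose scores ran most alike to a globin gene were looked up over the 12 library-by-class values, among genes more than 1 Mb away or on another chromosome. These values share the libraries and the step between the classes, so the correlations are descriptions. Hba-a1 was most like Glmn (Pearson r = 0.992), March2 (0.991) and Hbb-bs (0.991), the last being an adult gene of the other locus. Hbb-bs in turn had Cdr2 (0.991) first and Hba-a1 (0.991) second. Hba-a2 was most like Gpn3 (0.983), Ascc2 (0.983) and Treml4 (0.982), and its correlation with Hba-a1 was 0.906. Hbb-b2 was most like Nhlrc4 (0.985), Wdr81 (0.982) and Fig4 (0.982). For Hbb-bh2 the first gene was Txndc12 (0.963) and for Hbb-bh1 it was Btf3l4 (0.963), which was second for Hbb-bh2 (0.955). Hbb-y was most like Clec4e (0.957), and Hba-x was most like Mir8111 (0.940).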

How the data were processed

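Chromatin accessibility was measured in single nuclei of Ter119+ erythroblasts by 10x Genomics multiome, per the labels' protocols. The authors deposited gene scores, a signal of accessibility around each gene that is not a count, for 24333 genes in 34073 nuclei. In the deposited table the signal of each nucleus summed to 9999.855 to 10000.12, and 25.2% of the values were above 0. Cell Ranger and mm10 are named in the submitters' processing notes without a role, and the score's weighting was not given in the sources used here. Fragment counts per nucleus, doublet scores, clusters and classes came from a second deposited table, per the file headers. It held every nucleus in 2 equal rows, and 1 was used. No further doublet removal was made.

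Scores were averaged per library, rescaled to a sum of 1000000 over genes, filtered at a mean of at least 5 and compared as log2(score + 1) with limma 3.58.1 in R 4.3.3 (eBayes with a variance trend, two-sided, Benjamini-Hochberg, threshold 0.05). On that scale a fold change is understated where scores are low. The library was the replicate. Classes or clusters with at least 50 nuclei in every library were fitted, and scores were described where a library had at least 20. Ratios and shares were compared with exact permutation tests in scipy 1.17.1. Sequences were compared with Biopython 1.88. Before use, the fit was tested on simulated data in which 200 genes had a known change. A log2 change of 0.25 was found in 48.5% of them over all nuclei, 35.5% in Int and 53.0% in Late. A change of 0.5 was found in 95.5%, 81.5% and 96.5%. False calls were 1.96% to 7.91% of the calls, against the threshold of 0.05. Changes as widespread as the 43.3% of genes called over all nuclei were not simulated. The replicate numbers in the labels were not treated as pairs.

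All genes named Hba- or Hbb- are named. Of genes within 250 kb, the nearest on each side and those with the largest change in each direction are named. Of the regulators, those past the threshold in any fit over all, Int or Late nuclei are named. Zbtb7a was named after its values were seen. For each globin gene up to 3 genes of highest correlation are named. The globin genes, lists and tests were chosen with earlier results of these data known. The alternatives tried are other pseudocounts (0.1 and 5), filters (none and 20) and normalizations, no variance trend, the replicate block, nuclei weighted by fragments or reweighted to 5 equal fragment bins, leaving out the 10% of nuclei with the highest doublet scores, equal weight of Int and Late nuclei, and leaving out each library. The RNA, stem and progenitor cell, CUT&RUN and Hi-C libraries were not analysed here. Ahsp had no row among the scores used here.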

Additional observations from a re-analysis of the deposited data

Results flagged for a closer look

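The genotype difference differed between Late and Int nuclei for 3 genes among the neighbours and listed regulators of the globin genes, by the test of the difference itself (limma on the Late minus Int difference of each library, Benjamini-Hochberg). The theta-like gene Hbq1a, which follows Hba-a2, had a difference of -0.18 (adjusted p = 0.0235). Sox6, a silencer of the embryonic beta genes, had -0.23 (adjusted p = 0.00551), and Ikzf1, a transcription factor of blood cells, had -0.26 (adjusted p = 0.0178). In all 3 genes every KO library had a lower Late minus Int step than every WT library, and the groups were apart for 23.4% of all genes. Of the 29 listed regulators tested 2 were called, near the share of 5.66% called among all 15873 genes. The number called is therefore no result about these genes as a list. With the variance trend taken on the mean difference, an alternative chosen after seeing the data, the adjusted p was 0.137 for Hbq1a, 0.117 for Sox6 and 0.223 for Ikzf1. Leaving out 1 library also ended the call of Hbq1a (without WT replicate 1, WT replicate 2, KO replicate 1 or KO replicate 2, highest adjusted p = 0.142) and of Ikzf1 (without WT replicate 1, KO replicate 2 or KO replicate 3, highest adjusted p = 0.124), and none of the 6 ended that of Sox6 (highest adjusted p = 0.0492).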

How the results depend on the processing

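None of the 6 Late calls of globin genes was lost in any alternative that tested the gene. A filter at a mean score of 20, which drops Hba-x, Hbb-bh2 and Hbb-bh1, left 4244 genes and 3 globin genes called over all nuclei, 3 globin genes in Int, and 4560 genes in Late. Weighting nuclei by fragments gave 2415 genes and 3 globin genes over all nuclei, and turned Hba-x in Int to 0.011. With no variance trend 1921 genes and 2 globin genes were called in Int. Median centring turned Hbq1a to -0.065 over all nuclei and -0.0097 in Late, and Hba-a2 to -0.12 in Int. Hba-x over all nuclei was called with median centring (-0.24), quantile normalization (-0.37) and cyclic loess (-0.33). For the Late minus Int difference 35 genes were called with the variance trend on the mean difference, chosen after seeing the data, and 1 globin gene (Hba-a2) with the replicate block or with equal fragment bins. Equal fragment bins gave 3 pairs apart in Late ratios, and 6 (all nuclei) and 4 (Int) globin genes apart in shares. The cause of these changes was not tested, other than the genes the filter drops.

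Leaving out each library in turn gave -0.19 to 0.032 for Hba-a2 and -0.00075 to 0.17 for Hbq1a over all nuclei. In Int it gave 2547 to 4782 genes, 2 to 6 globin genes, -0.14 to 0.12 for Hba-x and -0.056 to 0.15 for Hba-a2, and in Late -0.010 to 0.12 for Hbq1a. For the Late minus Int difference it gave 239 to 2092 genes, 0 to 1 globin genes and -0.046 to 0.11 for Hba-a1. In C2 it gave 0 to 1161 genes and 0 to 2 globin genes, and in C5 8 to 329 genes and -0.061 to 0.24 for Hba-a2. Pairs apart ran from 5 to 11 in Int and from 0 to 9 in Late, and globin genes apart in shares from 2 to 6 over all nuclei and from 2 to 5 in Int.

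The replicate numbers are shared by number only. The deviations of same-numbered libraries correlated at -0.12, -0.27 and 0.21 over all nuclei, so the numbers were not taken as pairs. With the replicate number as a block, 6, 5 and 6 globin genes were called over all, Int and Late nuclei, as without it, of 7470, 4527 and 7982 genes, and 1335 genes for the Late minus Int difference.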
